A study of Mus musculus with 12 samples.

Results

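The livers of 6 mice kept on normal chow (ND) were compared by genotype: 3 Mlkl-/- animals against 3 wild-type animals. They were taken by their genotype and diet labels and are 6 of the 12 liver libraries in the series. The other 6 come from wild-type and Mlkl-/- mice fed a lipid-rich diet (HFD) in which 36% of the feed is fat and lipid supplies 59% of the energy, again 3 of each genotype, and serve only to estimate the spread and to test whether a genotype difference depended on diet. Mice were 8 to 9 weeks old when feeding began. Feeding lasted 25 weeks by the labels and 16 to 25 weeks by the series text, which states that the sampled animals were fed and were picked by mean organ weights. The labels say neither how the Mlkl allele was made nor whether the wild-type mice were littermates, and they name no Cre or tissue restriction. Expression was measured by 3′ mRNA sequencing, which reads the ends of polyadenylated transcripts. Levels are CPM on TMM-normalised library sizes, and differences are log2, Mlkl-/- minus wild-type.

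MLKL is the executioner of necroptosis, a regulated death in which the cell bursts. In that pathway death receptors, Toll-like receptors or the nucleic acid sensor ZBP1 engage the kinase RIPK3, often through RIPK1, and RIPK3 phosphorylates MLKL, which then oligomerises and permeabilises the plasma membrane. Caspase-8 with FADD and cFLIP restrains the pathway by cleaving RIPK1 and RIPK3. Hepatocytes are known for very low Ripk3 expression, and MLKL has been studied in the liver also for roles in lipid handling and membrane traffic outside cell death.

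Total counts were 23477594, 21055761 and 32120426 in wild-type replicates 1 to 3 and 22108300, 24356087 and 26535219 in the Mlkl-/- replicates. Albumin (Alb), the main secreted protein of hepatocytes, stood at 67773 to 71099 CPM in the wild-type and 45483 to 71458 CPM in the Mlkl-/- libraries, and all 17 hepatocyte identity genes were detected well enough to be tested. Mlkl-/- replicate 1 stood apart from the other ND libraries. Its chi-square per degree of freedom over genes was 115 and 137 against the other 2 Mlkl-/- libraries, while those 2 differed from each other by 31.8 and the wild-type pairs by 19.4 to 45.1. Its counts at 8 loci, among them Mir6236 and Lars2, summed to 9239 raw CPM, against 490 and 656 in the other Mlkl-/- and 378 to 473 in the wild-type libraries. High sums were not particular to it in the series. On HFD they were 534, 6054 and 6584 raw CPM in the wild-type and 6964, 3484 and 5536 raw CPM in the Mlkl-/- libraries. A code in the titles also splits the libraries: wild-type replicates 1 and 2 and Mlkl-/- replicate 1 carry 23, and the other 3 carry 27. The sources used here do not say what the code marks. The HFD libraries carry 25 or 29. For fits of all 12 libraries, 23 was pooled with 25 and 27 with 29, here named the code level. That term assumes the same shift on both diets. Results are therefore given with and without Mlkl-/- replicate 1 where they rest on it.

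Mlkl itself (ENSMUSG00000012519, mm10 chr8:111311797-111338177, minus strand) was low in every liver. Its counts were 72, 76 and 92 in the wild-type libraries, which is 3.08, 3.73 and 3.01 CPM, and 16, 15 and 20 in the Mlkl-/- libraries, which is 0.79, 0.66 and 0.79 CPM. The groups did not overlap, at 3.27 ± 0.40 CPM (SD, n = 3) against 0.75 ± 0.071 CPM (SD, n = 3). The difference was -2.12 (SE 0.37), with an adjusted p of 0.144 in edgeR's quasi-likelihood test with Benjamini-Hochberg adjustment over 18098 genes. An exact two-sided permutation test over the 6 libraries gave p = 0.1, the smallest that 3 against 3 allows. Within title code 23 the difference in log2 CPM was -2.00, and within code 27 it was -1.94. The method reads the 3′ ends of transcripts, but the positions of the reads left in the Mlkl-/- livers were not examined. The sources used here do not say whether the Mlkl-/- allele lacks the 3′ end.

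The other necroptosis genes stood at like levels in both genotypes. Of 28 genes tested, Chmp4b, an ESCRT-III subunit that repairs permeabilised membrane, was the only other member with an unadjusted p under 0.05. Its level was 40.2, 36.1 and 32.4 CPM in the wild-type and 72.0, 43.1 and 46.0 CPM in the Mlkl-/- livers (log2 difference 0.57, adjusted p = 0.656). Ripk3, the kinase that activates MLKL, was barely detected, at 1.28, 0.64 and 0.26 CPM against 0.44, 1.51 and 0.83 CPM, and the sign of its difference turned when single libraries were left out. Ripk1, its upstream partner, stood at 30.0 to 33.8 CPM in the wild-type and 27.6 to 36.6 CPM in the Mlkl-/- libraries. Casp8 had a log2 difference of -0.06, its adaptor Fadd 0.07 and its regulator Cflar 0.28, while Zbp1 stood at 0.43. All 5 of these core genes overlapped between the genotypes, and so did Ripk3. The median difference over the 28 genes was 0.01, beside a median of 0.00030 over all genes tested. Among 32 genes of apoptosis and pyroptosis, the pro-apoptotic BH3-only genes Bcl2l11 (-0.71) and Bid (-0.45) were the members with an unadjusted p under 0.05.

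Loss of Mlkl on chow was called for 1 gene of 18098 (0.00553%) at an adjusted p under 0.05. That gene was Mybph, and it fell. A further 509 genes (2.81%) were higher and 488 (2.7%) lower in Mlkl-/- livers at an unadjusted p under 0.05, counting Mybph, together close to the share that the threshold itself admits. In 893 genes (4.93%) all 3 Mlkl-/- libraries lay above all 3 wild-type libraries, and in 1006 (5.56%) they lay below. The values that follow for every gene other than Mybph missed the threshold in this test. Other fits called more genes: DESeq2 called 46, and a fit of the 6 ND libraries with the title code as a term called 27, with 12 in common. Among those 12 were Fabp5, Adora1, Scd1, Idi1, Msmo1, Acot1 and Serpina6, with adjusted p-values in the fit with the code of 0.0117 for Fabp5, 0.0257 for Adora1, 0.0446 for Scd1 and 0.0469 for the others. With the code level as a term in all 12 libraries, Adora1 was called with Mybph (adjusted p = 0.0124). The labels number the animals separately, so the p-values measure the spread between these animals.

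Mybph encodes myosin-binding protein H, a sarcomere-associated protein best known from skeletal muscle. It lies at mm10 chr1:134193448-134201232 on the plus strand (ENSMUSG00000042451). Its counts were 164, 182 and 289 in the wild-type and 62, 69 and 68 in the Mlkl-/- libraries. In CPM it stood at 7.01, 8.94 and 9.46 in the wild-type livers and at 3.04, 3.06 and 2.69 in the Mlkl-/- livers. The groups were well apart and the 3 Mlkl-/- values lay close together. The fall was -1.53 (SE 0.19, adjusted p = 0.0193, edgeR's quasi-likelihood test), lower in 3 of 3 animals, and it was -1.35 within code 23 and -1.69 within code 27. Without Mlkl-/- replicate 1 it was -1.57, with an adjusted p of 0.0661. The adjusted p also missed the threshold when wild-type ND replicate 2 or 3, Mlkl-/- ND replicate 2 or 3, wild-type HFD replicate 1 or Mlkl-/- HFD replicate 1 was left out, at 0.0519 to 0.248. It was 0.0747 with limma-voom and 0.0707 in a fit of the 6 ND libraries alone.

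Several defining genes of fast skeletal muscle fibres were close to absent from these livers. Ckm, the muscle creatine kinase, had 0 to 3 counts per library, and Tnnt3, the fast skeletal troponin T, 0 or 1. Myh1, Myh2 and Myh4, the fast myosin heavy chains, had at most 1 count in any ND library. Others were low but present: Acta1, the skeletal actin, had 34 to 59 counts per ND library, Mylpf, a fast myosin light chain, 9 to 17, and Tpm2 and Des, which smooth muscle also expresses, 48 to 164 and 48 to 122. Only 9 of the 22 skeletal and smooth muscle genes had enough counts to be tested. Mybph was the only one of these 9 with an unadjusted p under 0.05.

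The neighbour of Mybph, Adora1, also had all 3 Mlkl-/- libraries under all 3 wild-type libraries. Adora1 encodes the adenosine A1 receptor and lies on the minus strand at mm10 chr1:134199223-134235431, so the genes run towards each other and overlap at their 3′ ends over 2010 bases, chr1:134199223-134201232. Adora1 stood at 35.6, 37.7 and 39.6 CPM in the wild-type and 14.2, 17.9 and 15.1 CPM in the Mlkl-/- livers, with no overlap. The difference was -1.26 (SE 0.20), with an adjusted p of 0.144. The Mybph count was 14.9% to 23.9% of the Adora1 count in all 12 libraries of the series. It was 19.7% to 23.9% in wild-type ND and 17.1% to 21.4% in Mlkl-/- ND livers. The sources used here do not state whether counting used strand, so reads of Mybph and of Adora1 in the shared stretch cannot be told apart. No such difference extended along the chromosome: of 27 other tested genes within 1 Mb, 1 had an unadjusted p under 0.05 (Plekha6, -0.36, adjusted p = 0.656), and their log2 differences ran from -0.63 to 0.54.

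**Figure D1:**
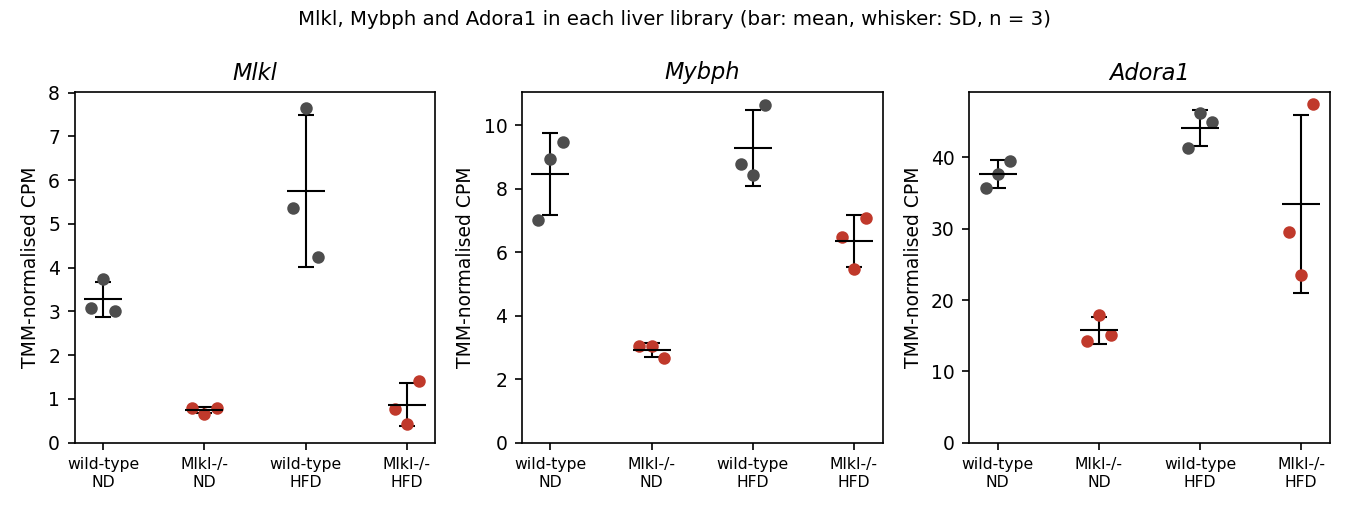
TMM-normalised CPM (vertical axis, linear from 0) of Mlkl, Mybph and Adora1 in each of the 12 libraries by genotype and diet, with the mean (bar) and SD (whisker) of 3 libraries. On ND the Mlkl-/- points of all 3 genes lie below every wild-type point, with Mybph at 2.69 to 3.06 against 7.01 to 9.46 CPM; on HFD one Mlkl-/- point of Adora1 lies above the wild-type points.

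The 79 tested genes that lie up to 5 Mb from Mlkl were read apart. Of these, 0 were called by edgeR's quasi-likelihood test, and the median difference was 0.02. At an unadjusted p under 0.05, 2 were higher (Smpd3, 1.70, and Hp, 0.61) and 1 was lower (Bcar1, -0.42). Smpd3 encodes neutral sphingomyelinase 2 and Hp encodes haptoglobin, the haemoglobin scavenger of plasma.

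Behind Mybph and Adora1, the next leading genes by p on the lower side follow with their values. The 12 leading genes of each side were chosen among genes of at least 5 CPM without overlap, with predicted genes left out. Sulf2, a sulfatase that trims heparan sulfate, stood at 12.4, 12.96 and 9.56 CPM against 5.11, 6.38 and 5.05 CPM (-1.07, adjusted p = 0.144). P2ry1, a receptor for ADP, stood at 9.44, 8.54 and 11.9 CPM against 5.06, 5.32 and 3.83 CPM (-1.08). Mfsd2a, the carrier of lysophosphatidylcholine with docosahexaenoic acid, stood at 97.2, 140 and 90.5 CPM against 44.5, 31.1 and 50.9 CPM (-1.37). Lack of overlap in a leading gene, here or where it is described with its pathway, was a condition of the choice and is no separate result. Serpina6, which encodes corticosteroid-binding globulin, had a difference of -1.29, the carboxylesterase Ces1e of -0.89, the asparaginase Aspg of -0.69, and the antisense transcript Hnf1aos1 of -1.02. The thioesterases Acot1 and Acot2 and the hepcidin gene Hamp2 complete the 12 genes and are described with their pathways. Adjusted p-values of these 11 genes ran from 0.144 to 0.375.

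On the higher side, 3 of the 12 leading genes (Idi1, Msmo1 and Mvk) are on the cholesterol synthesis list. Tmed3, a p24 cargo receptor between the endoplasmic reticulum (ER) and the Golgi, stood at 9.53, 9.53 and 10.5 CPM in the wild-type and 17.6, 16.4 and 19.1 CPM in the Mlkl-/- livers (0.84, SE 0.15, adjusted p = 0.144). Its relative Tmed9 stood at 47.4, 52.5 and 55.3 CPM against 113, 72.2 and 81.7 CPM (0.78). Ctps2, a CTP synthase, stood at 6.11, 5.94 and 6.84 CPM against 10.8, 10.8 and 11.0 CPM (0.78). The spread within each genotype was small for Tmed3 and Ctps2. That no library crossed between the groups was a condition of the choice. Acsl4, which activates arachidonic acid for membrane lipids, stood at 49.4, 52.5 and 69.8 CPM against 101, 94.3 and 109 CPM (0.82). Pgm3, an enzyme of UDP-N-acetylglucosamine synthesis, had a difference of 0.69, the chromatin remodeller Hltf of 0.64, and Tmem62 of 0.73. Idi1, Msmo1, Mvk, the interferon-inducible gene Ifi27 and the hepatokine gene Fgl1 make up the rest. Their adjusted p-values ran from 0.144 to 0.428.

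Gene lists of liver pathways gave fuller groups than the single genes. A list is described by the number of its members at an unadjusted p under 0.05 in each direction, the number whose libraries did not overlap, and the median difference, all to be read beside the shares over all genes given above. Single list members named below were mostly picked by small p or after their values were seen. Lack of overlap in such a gene is no separate result. No member of any list other than Mybph was called by edgeR's quasi-likelihood test. DESeq2 called 6 cholesterol synthesis genes higher, 2 fatty acid oxidation genes lower, 2 iron and haem genes lower, and 1 acute phase gene higher and 1 lower. Hamp counts in both the iron and the acute phase list. Other lists had at most 1 call per direction, such as 1 higher and 1 lower among lipid droplets and uptake.

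**Figure D2:**
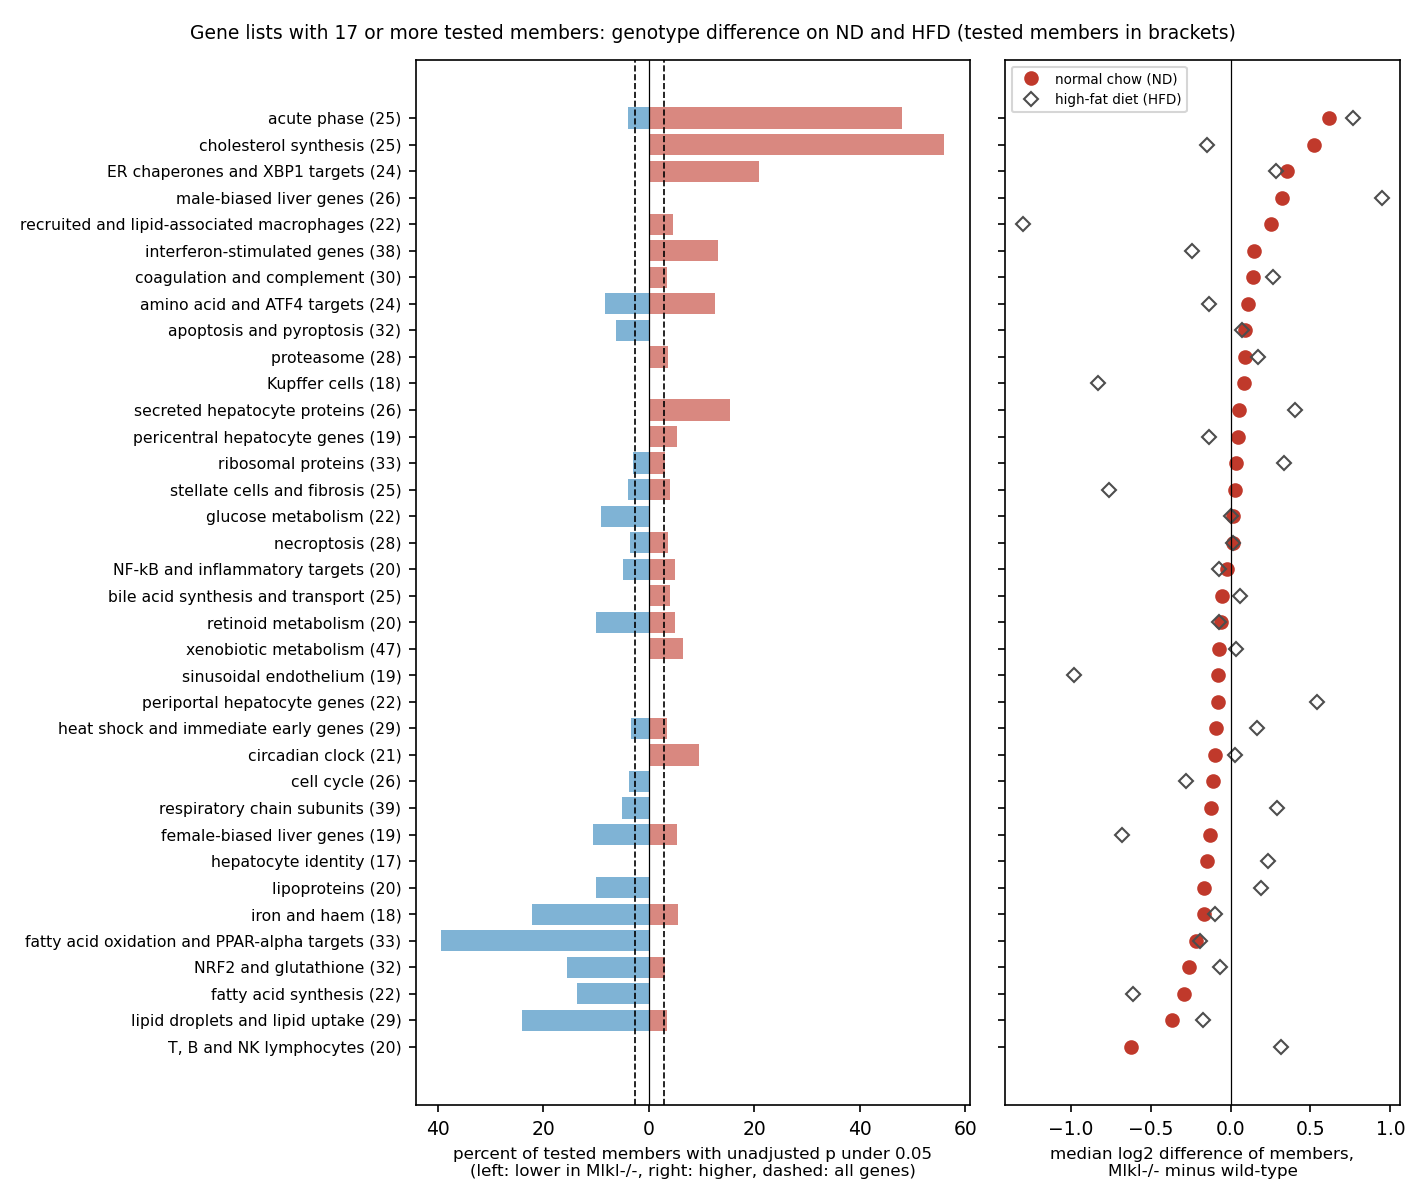
Gene lists with 17 or more tested members (number in brackets), ordered by their median difference on ND: left, the percent of members at an unadjusted p under 0.05 that were lower (blue) or higher (red) in Mlkl-/- livers, with dashed lines at 2.7% and 2.81% for all genes; right, the median log2 difference on ND (filled) and HFD (open). Cholesterol synthesis (14 of 25 higher), the acute phase (12 of 25 higher) and fatty acid oxidation (13 of 33 lower) reach farthest from the dashed lines.

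Cholesterol synthesis genes stood higher as a group in the Mlkl-/- livers. Of 25 genes tested, 14 were higher at an unadjusted p under 0.05 and 0 were lower, 12 had all Mlkl-/- libraries above all wild-type libraries, and the median difference was 0.52. The sterol pathway builds cholesterol from acetyl-CoA through mevalonate, isoprenoids and squalene, and the transcription factor SREBP2 is known to drive its genes when ER cholesterol is low. Without Mlkl-/- replicate 1 the count was 6 higher and 0 lower and the median 0.29. With the code level as a term in all 12 libraries it was 12 higher and 0 lower.

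The members came from every stage of the pathway. Hmgcs1, which makes HMG-CoA, stood at 123, 82.4 and 117 CPM in the wild-type and 298, 199 and 225 CPM in the Mlkl-/- livers (1.16, adjusted p = 0.726). Idi1 (mm10 chr13:8885501-8892451, plus strand), which isomerises the isoprenoid unit, stood at 90.1, 70.7 and 110 CPM against 272, 223 and 207 CPM (1.38, SE 0.28, adjusted p = 0.277). Sqle, the squalene epoxidase, stood at 18.2, 15.6 and 24.9 CPM against 91.4, 46.3 and 52.7 CPM (1.69, adjusted p = 0.559). In all 3 the lowest Mlkl-/- library lay well above the highest wild-type library, and Mlkl-/- replicate 1 was the highest of all. Msmo1, a demethylating oxidase of the later steps, stood at 71.2, 65.8 and 74.7 CPM against 220, 134 and 131 CPM (1.19), and 0.89 without Mlkl-/- replicate 1. Mvk (1.04), Cyp51 (0.99), Dhcr7 (0.87), Fdft1 (0.68) and Srebf2, the gene of SREBP2 itself (0.52), did not overlap either. Insig1, which retains SREBP in the ER, overlapped between the genotypes (0.16).

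**Figure D3:**
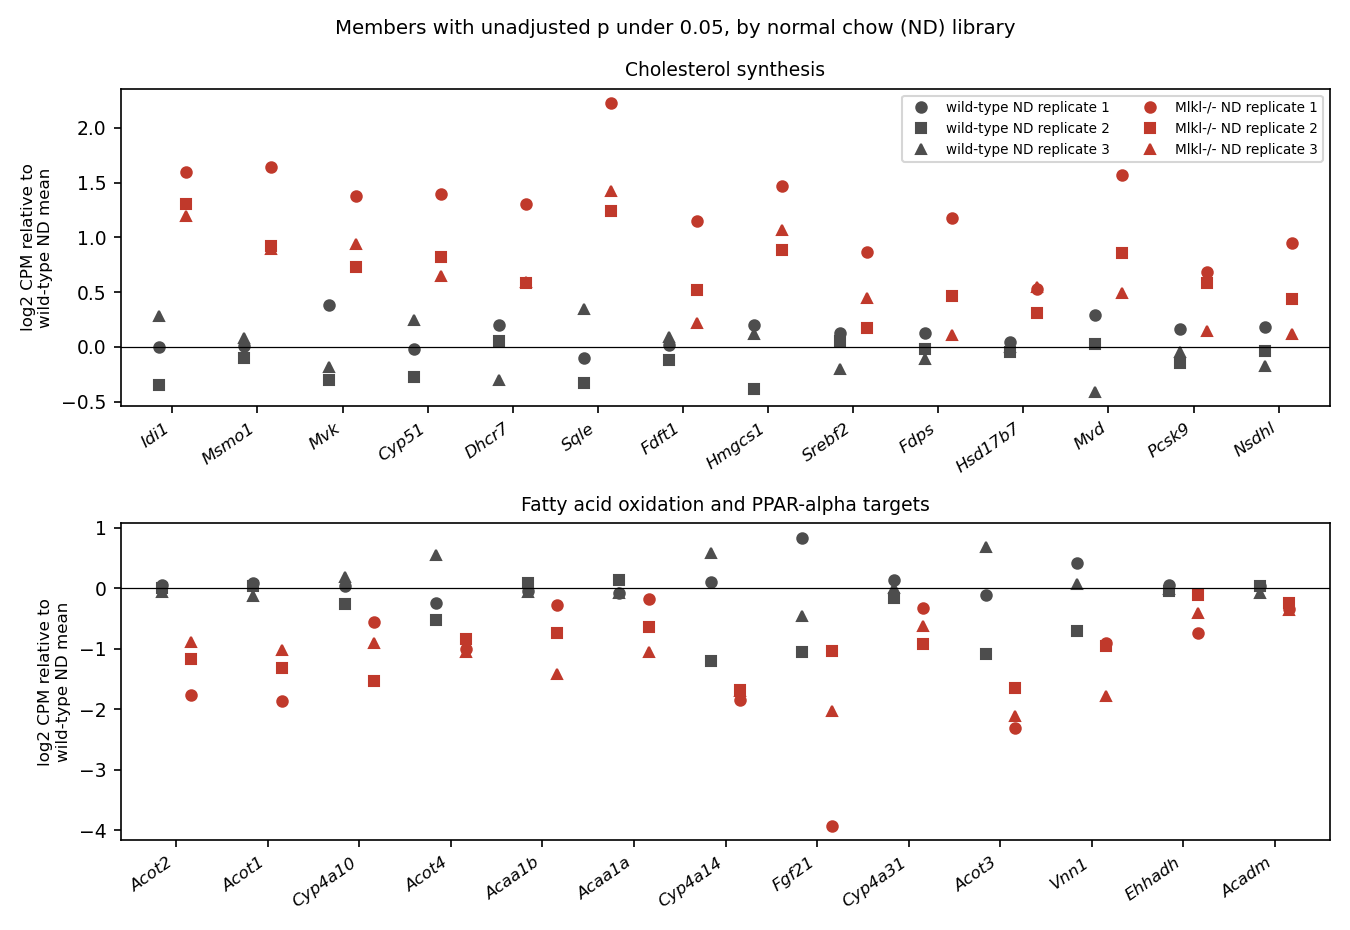
Members of 2 lipid lists with an unadjusted p under 0.05, ordered by p, in each ND library as log2 CPM relative to the mean CPM of the wild-type ND libraries (vertical axis; grey wild-type, red Mlkl-/-, symbol by replicate). Sterol genes of the Mlkl-/- livers lie above 0 with replicate 1 highest in most, and the fatty acid oxidation genes lie below 0 with no single replicate lowest throughout.

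RefSeq promoter windows (GRCm38.p6) were searched because these genes stood higher together; the motif was chosen with the values known. The sterol regulatory element was written TCACNCCAC and searched on both strands in the 250 bases before the start. It was found in 1 of the 17 members that have a window (5.88%). The share was 1.225% of all 27025 genes with a window, and 346 of all 32851 windows (1.05%) held it. A share that rests on 1 member is too small a base to set against these. The member was Hmgcs1, a textbook SREBP target, whose window at chr13:119690101-119690350 (plus strand) is shown with the matched bases in capitals.

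Hmgcs1: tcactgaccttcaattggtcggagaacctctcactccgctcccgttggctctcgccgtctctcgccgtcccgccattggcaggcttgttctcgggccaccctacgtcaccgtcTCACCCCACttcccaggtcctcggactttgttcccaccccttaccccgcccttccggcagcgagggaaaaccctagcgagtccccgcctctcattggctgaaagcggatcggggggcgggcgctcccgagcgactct

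Cholesterol genes differed between diets in their values. On HFD the median genotype difference of the same 25 genes was -0.15, with 1 higher and 0 lower at an unadjusted p under 0.05, beside 7.21% of all genes higher and 8.29% lower in that comparison. The interaction of genotype and diet had an unadjusted p under 0.05 for 12 of the 25, beside 10.4% of all genes, and no gene's interaction passed the adjusted threshold in edgeR's test. For Idi1 the interaction was 1.52 (SE 0.39, adjusted p = 0.338).

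Fatty acid oxidation genes showed the opposite side. Of 33 genes of oxidation and targets of PPAR-alpha, the nuclear receptor that switches on lipid burning in fasting, 0 were higher and 13 were lower at an unadjusted p under 0.05. All Mlkl-/- libraries lay below all wild-type libraries in 16, and the median was -0.22. Without Mlkl-/- replicate 1 the count was 0 higher and 10 lower, and with the code level as a term in all 12 libraries 0 higher and 13 lower. The thioesterase Acot1 (mm10 chr12:84009490-84018371, plus strand) stood at 50.5, 48.8 and 43.7 CPM in the wild-type and 13.2, 19.1 and 23.5 CPM in the Mlkl-/- livers (-1.36, adjusted p = 0.214). Its mitochondrial relative Acot2 stood at 21.1, 20.5 and 19.6 CPM against 6.04, 9.12 and 11.0 CPM (-1.22). Neither overlapped. Acot1, Acot2, Acot3 and Acot4 are related neighbours, as are the Cyp4a genes. The split of reads among copies can be uncertain and was not examined. On HFD 0 of the 33 genes were higher and 7 lower at an unadjusted p under 0.05, with a median of -0.19. Of all genes, 7.21% were higher and 8.29% lower there. The interaction had an unadjusted p under 0.05 for 2 of the 33, beside 10.4% of all genes.

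Other members spanned peroxisomes, microsomes and mitochondria. Cyp4a14, a fatty acid omega-hydroxylase, stood at 225, 91.2 and 313 CPM against 58.3, 65.5 and 64.3 CPM (-1.74), with a wide wild-type spread. The peroxisomal thiolase Acaa1b stood at 1213, 1328 and 1196 CPM against 1027, 745 and 464 CPM (-0.74). Acadm, the medium-chain acyl-CoA dehydrogenase, had a difference of only -0.31 but did not overlap. Fgf21, the fasting hormone, overlapped at 26.8, 7.22 and 10.9 CPM against 0.98, 7.31 and 3.67 CPM. Cpt1a, the gate of mitochondrial oxidation, stood at 380 to 561 CPM in the wild-type and 416 to 530 CPM in the Mlkl-/- livers (-0.09). The consensus of the PPAR response element, a direct repeat of the receptor half-site, was found in none of the 24 members with a promoter window. It was found in 0.0407% of all genes with a window and in 0.0335% of all windows. At so low a share, the lack of a match among 24 members says little.

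Lipid storage and synthesis genes tended to the same side. Of 29 genes of lipid droplets and uptake, 1 was higher and 7 lower at an unadjusted p under 0.05, with 2 wholly above and 11 wholly below and a median of -0.37. The liver fatty acid-binding protein gene Fabp1 stood at 2962, 2852 and 2322 CPM in the wild-type and 1689, 1975 and 1269 CPM in the Mlkl-/- livers (-0.72), and G0s2, an inhibitor of the lipase ATGL, at 235, 149 and 71.0 CPM against 51.0, 48.3 and 30.3 CPM (-1.81). Vldlr, the VLDL receptor gene, stood at 1.54, 1.72 and 1.21 CPM against 0.15, 0.58 and 0.36 CPM (-2.01). The higher member was Fabp5, at 32.9, 27.5 and 25.5 CPM against 110, 66.0 and 72.2 CPM (1.53). These 4 genes did not overlap between the genotypes. The lipid droplet coat gene Plin2 overlapped, at 682 to 823 CPM against 295 to 706 CPM.

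Of 22 genes of fatty acid synthesis, 0 were higher and 3 lower. Scd1, the desaturase that makes oleate, stood at 8716, 7173 and 10552 CPM against 3157, 5044 and 3960 CPM (-1.12, adjusted p = 0.431). The carbohydrate-sensing factor gene Mlxipl differed by -0.58 and Srebf1, the gene of the lipogenic SREBP, by -0.53. Fasn, the fatty acid synthase, overlapped widely at 181 to 330 CPM against 163 to 304 CPM. Of 22 glucose metabolism genes, 0 were higher and 2 lower at an unadjusted p under 0.05, among them Gys2, the liver glycogen synthase, at 165, 226 and 203 CPM against 103, 153 and 88.3 CPM (-0.79, adjusted p = 0.718). On HFD 0 of the 22 fatty acid synthesis genes were higher and 9 lower at an unadjusted p under 0.05. Their median was -0.61, beside -0.29 on ND. Of all genes, 7.21% were higher and 8.29% lower on HFD. The interaction had an unadjusted p under 0.05 for 1 of these 22, beside 10.4% of all genes.

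Acute phase genes stood higher in the Mlkl-/- livers. Hepatocytes secrete these plasma proteins under interleukin-6 and related cytokines. Of 25 genes, 12 were higher and 1 was lower at an unadjusted p under 0.05, 10 lay wholly above and 1 wholly below, and the median was 0.61. Without Mlkl-/- replicate 1 the count was 9 higher and 1 lower and the median 0.63. Serpina3n, a protease inhibitor, stood at 290, 362 and 385 CPM in the wild-type and 1375, 745 and 1702 CPM in the Mlkl-/- livers (1.88, adjusted p = 0.556). Fgl1, a fibrinogen-like hepatokine and ligand of LAG-3, stood at 286, 276 and 397 CPM against 938, 618 and 1098 CPM (1.47, SE 0.31, adjusted p = 0.298). Apcs, the gene of serum amyloid P, stood at 79.9, 60.7 and 112 CPM against 296, 181 and 332 CPM (1.68). In each of these 3, every Mlkl-/- library was above every wild-type library and replicate 2 was the lowest of the Mlkl-/- livers.

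The serum amyloid A genes spread far more between animals. Saa1 stood at 28.6, 33.0 and 365 CPM in the wild-type and 790, 507 and 1772 CPM in the Mlkl-/- livers, with an unadjusted p above 0.05 (2.84, adjusted p = 0.904). Lcn2, the siderophore binder lipocalin-2, stood at 3.85, 3.78 and 9.86 CPM against 71.2, 11.8 and 149 CPM (3.71, adjusted p = 0.816). Neither gene overlapped between the groups, while the highest and lowest library within each group differed several-fold. Haemopexin (Hpx), the haem scavenger, stood at 3945, 3671 and 4747 CPM against 6204, 5865 and 7501 CPM (0.66). On HFD 12 of the 25 genes were higher and 0 lower at an unadjusted p under 0.05, with a median of 0.77, beside 7.21% and 8.29% of all genes. The 2 comparisons share no library. The interaction had an unadjusted p under 0.05 for 3 of the 25 genes, close to the 10.4% of all genes.

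The lower acute phase gene was Hamp, which encodes hepcidin, the hormone that blocks iron export by ferroportin. Hamp (mm10 chr7:30942368-30944032, minus strand) stood at 755, 672 and 594 CPM in the wild-type and 86.9, 273 and 293 CPM in the Mlkl-/- livers. The lowest wild-type value was above the highest Mlkl-/- value, and Mlkl-/- replicate 1 was lowest. The difference was -1.63 (SE 0.41, adjusted p = 0.540), and -1.27 without that replicate. Its near-identical copy Hamp2 (chr7:30922372-30924681, minus strand) stood at 76.6, 55.6 and 44.7 CPM against 6.48, 17.5 and 18.7 CPM (-2.05, SE 0.42, adjusted p = 0.375), and reads may be shared between the copies.

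Hepcidin is known to follow BMP and SMAD signalling in hepatocytes. Id1, a direct BMP target, stood at 16.3, 14.4 and 14.7 CPM against 1.52, 8.68 and 2.57 CPM (-1.83, adjusted p = 0.765). Smad7, the inhibitory SMAD induced by the same signal, stood at 11.3, 10.8 and 11.5 CPM against 5.21, 8.15 and 5.80 CPM (-0.81, adjusted p = 0.598). These 2 genes, Hamp and Hamp2 were the 4 of 18 iron and haem genes that were lower at an unadjusted p under 0.05, none of the 4 overlapping, and Cp, the ferroxidase ceruloplasmin, was the 1 that was higher (0.44). Bmp6, the ligand made by sinusoidal endothelium, overlapped at 6.07, 4.22 and 3.73 CPM against 1.82, 2.35 and 5.29 CPM. The co-receptor gene Tfr2 (0.03) and the protease gene Tmprss6 (-0.15), which set the strength of the signal, overlapped too.

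The promoters of both hepcidin genes are shown for a BMP element at which they differ. Whether it bears on their lower levels was not tested. The element was written GGCGCC, chosen with the values known and searched on both strands in the 250 bases before the start. It was found in 2 of 10 iron and haem genes with a window, Hamp and Tfrc, the transferrin receptor gene. The share was 10.85% of all 27025 genes with a window and 9.59% of all 32851 windows. The windows are chr7:30944030-30944279 for Hamp and chr7:30924182-30924431 for Hamp2 (GRCm38.p6, RefSeq, minus strand), with matched bases in capitals. The RefSeq start of Hamp2 differs from its GENCODE start, so its window lies inside the GENCODE span given above.

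Hamp: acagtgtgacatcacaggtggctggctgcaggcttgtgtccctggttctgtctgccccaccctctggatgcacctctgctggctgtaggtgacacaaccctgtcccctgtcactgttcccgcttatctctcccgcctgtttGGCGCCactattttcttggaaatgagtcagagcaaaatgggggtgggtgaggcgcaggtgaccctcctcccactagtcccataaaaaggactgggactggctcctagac

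Hamp2: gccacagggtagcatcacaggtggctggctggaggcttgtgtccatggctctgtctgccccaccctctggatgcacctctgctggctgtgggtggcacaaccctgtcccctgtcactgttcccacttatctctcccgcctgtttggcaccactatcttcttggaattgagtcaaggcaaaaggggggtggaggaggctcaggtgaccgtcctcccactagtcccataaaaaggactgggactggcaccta

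Compared without gaps at an offset of 3 bases, 227 of 247 bases (91.9%) were identical. Within the element of Hamp, counted from 1 at its 5′ end, the Hamp2 window differs by G4A, so that it holds no match.

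**Figure D4:**
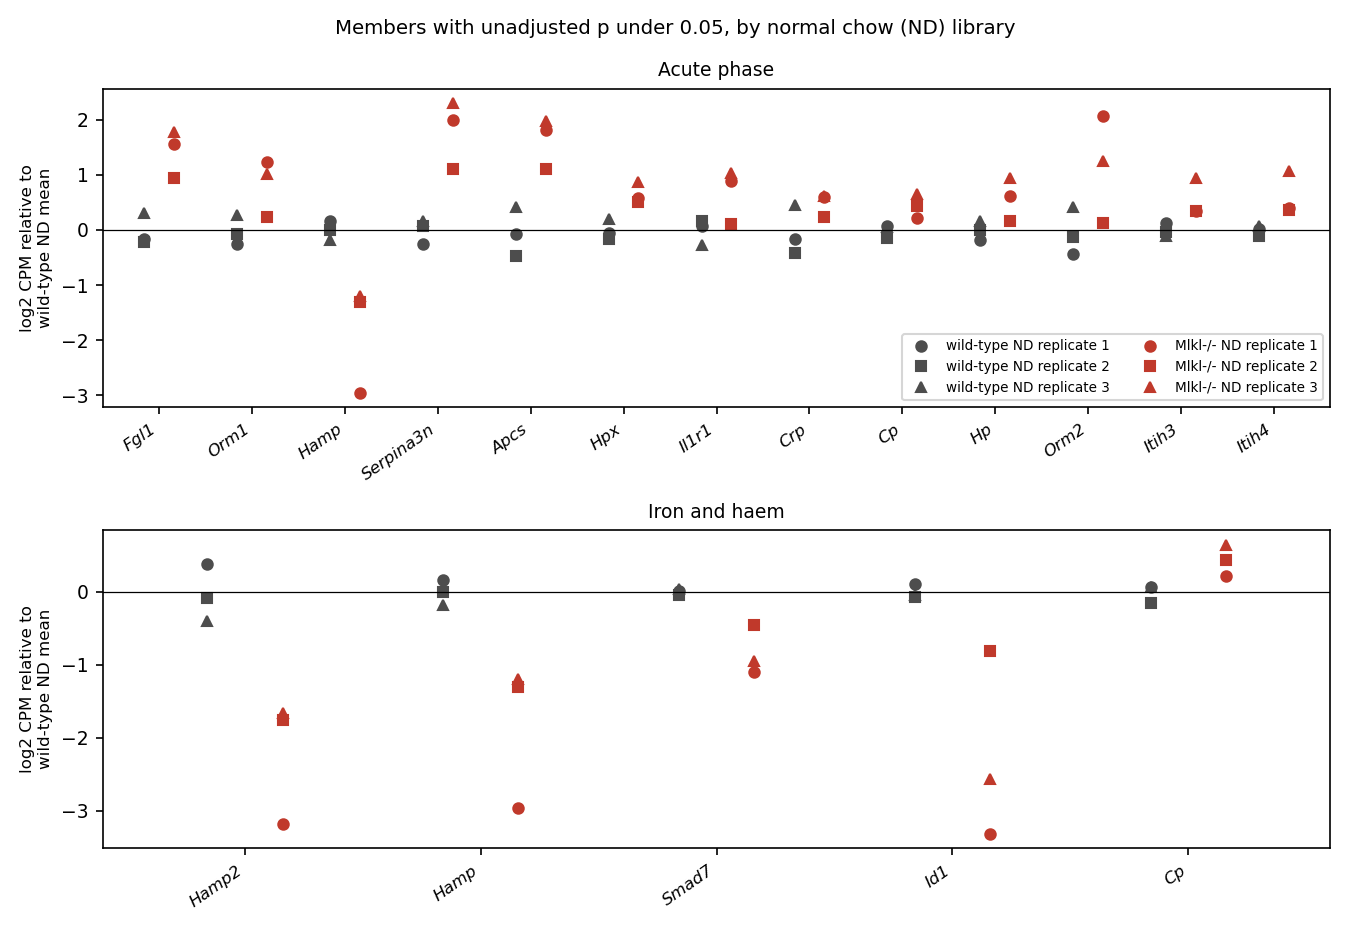
Acute phase (top) and iron and haem (bottom) genes with an unadjusted p under 0.05, ordered by p, in each ND library as log2 CPM relative to the mean CPM of the wild-type ND libraries (grey wild-type, red Mlkl-/-, symbol by replicate). Hamp, at 86.9 to 293 CPM in the Mlkl-/- livers, is the only plotted acute phase gene under 0 in that genotype, and Hamp2, Id1 and Smad7 lie below 0 with it.

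On HFD the hepcidin genes had the other sign, 0.83 for Hamp and 0.67 for Hamp2, neither called. The interaction was -2.45 (SE 0.58) for Hamp and -2.71 (SE 0.58) for Hamp2, each with an adjusted p of 0.338, which missed the threshold.

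ER folding genes stood slightly higher. Of 24 ER chaperones and targets of XBP1, 5 were higher and 0 lower at an unadjusted p under 0.05, 9 lay wholly above, and the median was 0.35. Without Mlkl-/- replicate 1 the count was 6 higher and 0 lower. Dnajb9, a co-chaperone, stood at 41.9, 42.9 and 38.9 CPM in the wild-type and 50.3, 83.2 and 81.4 CPM in the Mlkl-/- livers (0.80, adjusted p = 0.428). Manf, a secreted ER stress protein, stood at 44.2, 40.02 and 46.4 CPM against 62.4, 78.6 and 82.8 CPM (0.78). Hspa5, the chaperone BiP, stood at 490, 494 and 608 CPM against 657, 835 and 850 CPM (0.56). Mlkl-/- replicate 1 was the lowest of its group in these 3, and none of them overlapped. Ddit3, the stress factor CHOP, overlapped with a difference of -0.04. In the cytosol, the chaperone Hspa8 stood at 654, 871 and 871 CPM against 369, 557 and 371 CPM (-0.89, adjusted p = 0.606).

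Some interferon-stimulated genes stood slightly higher on chow. Of 38 genes, 5 were higher and 0 lower at an unadjusted p under 0.05, 7 lay wholly above, and the median was 0.15. Ifi27 stood at 38.2, 46.1 and 48.5 CPM in the wild-type and 84.0, 67.6 and 61.9 CPM in the Mlkl-/- livers (0.68, SE 0.15, adjusted p = 0.298). The deISGylase gene Usp18 stood at 2.06 to 2.70 CPM against 3.94 to 4.90 CPM (0.86), and the RNA sensor gene Oas1a at 1.57 to 2.01 CPM against 2.92 to 3.14 CPM (0.78). No library of either gene crossed between the groups, though both are expressed at only a few CPM. Isg15 (0.50) and Ifitm3 (0.45) were the other 2. On HFD 2 of the 38 were higher and 9 lower, beside 7.21% and 8.29% of all genes, with a median of -0.24. The interaction had an unadjusted p under 0.05 for 11 of them, beside 10.4% of all genes.

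Glutathione and NRF2 genes stood mostly lower. Of 32 genes, 1 was higher and 5 lower at an unadjusted p under 0.05, and 8 lay wholly below. The lower members were the transferases Gstm6 (-0.56), Gstt2 (-0.59), Gstk1 (-0.41), Gsta4 (-0.63) and Gsta2 (-1.01), all with adjusted p-values of 0.540 or more. Gstm6 stood at 72.1, 68.7 and 80.6 CPM against 47.3, 58.0 and 45.1 CPM. The higher member was Srxn1, the sulfiredoxin, at 32.5, 33.8 and 35.9 CPM against 153, 37.6 and 48.6 CPM. Its value in Mlkl-/- replicate 1 was far above the other 5. Of 39 respiratory chain subunits, 0 were higher and 2 lower, Cox8a (-0.35) and Cox5b (-0.34), with a median of -0.12. Of 33 ribosomal protein genes 1 was higher and 1 lower, with a median of 0.03. Leaving out Mlkl-/- replicate 1 gave 0 higher and 7 lower respiratory chain subunits (median -0.22) and 0 higher and 4 lower ribosomal protein genes (median -0.13).

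Few markers of the non-hepatocyte cells of the liver had an unadjusted p under 0.05 on chow. In bulk liver, fewer cells of a type and less RNA per cell cannot be told apart. Of 18 Kupffer cell genes 0 were higher and 0 lower at an unadjusted p under 0.05. Their summed level, without TMM scaling, was 448 to 560 raw CPM in the wild-type and 313 to 574 raw CPM in the Mlkl-/- livers. The lowest of these was Mlkl-/- replicate 1, in which Clec4f, a lectin of Kupffer cells, stood at 41.1 CPM against 49.1 to 75.8 CPM in the other 5 libraries. Of 19 genes of sinusoidal endothelium 0 were higher and 0 lower, and the endocytic receptor gene Stab2 stood at 18.8 to 35.2 CPM against 21.2 to 35.3 CPM. Of 22 genes of recruited and lipid-associated macrophages 1 was higher (Fabp5, also counted above) and 0 lower, and of 25 stellate cell and fibrosis genes Timp1 was higher and Lox lower, both under 1 CPM in every library. Of 20 genes of T, B and NK lymphocytes 0 were higher and 0 lower, and their median of -0.62 moved with 1 library: wild-type replicate 1 had 151 CPM of the immunoglobulin gene Ighm, against 5.45 to 14.97 CPM in the other 5. The Ighm difference was -2.30 and turned to 0.77 without that library. Of 4 neutrophil genes tested S100a9 was higher (1.03), at 0.93 to 1.54 CPM against 1.57 to 4.42 CPM, and 0 were lower, with a median of 0.99. Of 13 cholangiocyte genes 2 were higher, the keratin genes Krt8 and Krt18 that hepatocytes also express, and 0 lower, with 3 wholly above and a median of 0.04. Of 12 adipose tissue genes, 4 lay wholly below, the median was -1.08 (-0.30 in a fit of the 6 ND libraries alone), and Pparg (-0.86), Cfd (-2.91) and Retn were lower, Retn with 0 counts in all 3 Mlkl-/- libraries and under 0.5 CPM in the wild-type. The part of these cells in the metabolic values above was not tested.

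The same cell type lists were wider apart on HFD, where 5 of the 18098 genes (0.0276%) were called for genotype. There 12 of the 18 Kupffer genes, 17 of the 19 endothelial genes, 16 of the 22 macrophage genes and 15 of the 25 stellate genes were lower at an unadjusted p under 0.05, with medians of -0.83, -0.98, -1.30 and -0.76. Of all genes, 8.29% were lower on HFD at that p, and 10.4% had an interaction at that p. On chow the 4 medians were 0.08, -0.08, 0.25 and 0.03. The interaction had an unadjusted p under 0.05 for 9, 13, 14 and 11 of these genes in that order, and none passed the adjusted threshold in edgeR's test.

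Across all genes, the interaction was called for 0 of 18098 by edgeR's quasi-likelihood test (smallest adjusted p 0.338), with 1889 genes (10.4%) at an unadjusted p under 0.05. DESeq2 called 50 and limma-voom 0, with 1845 at an unadjusted p under 0.05. Of the 997 genes with an unadjusted p under 0.05 on chow, 538 (54.0%) had the same sign on HFD, beside 50.5% of all genes. Mybph itself stood at -0.54 on HFD, and its interaction of -0.99 (SE 0.27) had an adjusted p of 0.338.

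**Figure D5:**
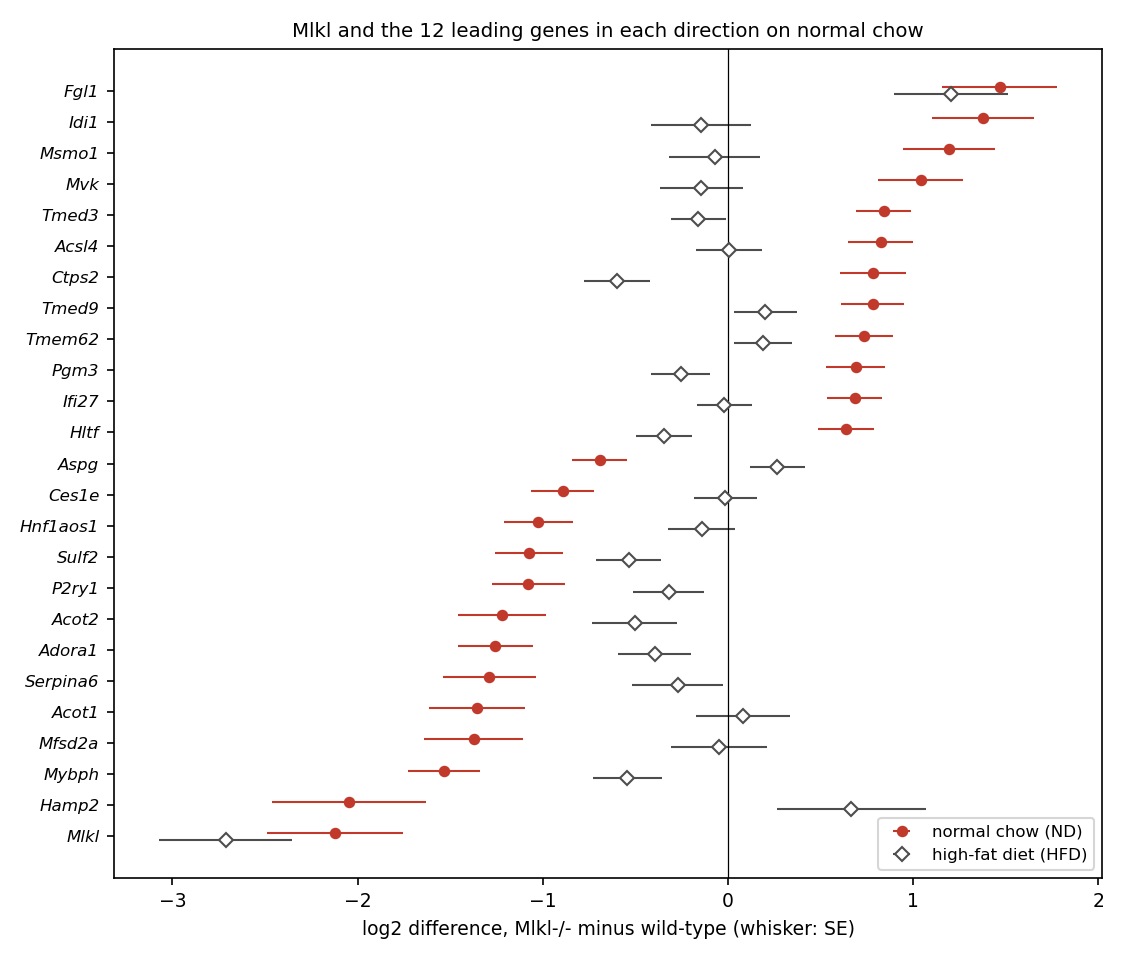
Log2 difference, Mlkl-/- minus wild-type, with its SE (whisker), for Mlkl and the 12 leading genes in each direction on ND, on ND (filled) and on HFD (open). Leading genes have the smallest p-values among genes of at least 5 CPM without overlap, with predicted genes left out. The genes were chosen on the ND values; Mlkl and Fgl1 lie at like values on both diets, whereas Idi1, Msmo1, Mvk, Acot1 and Mfsd2a lie near 0 on HFD.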

How the data were processed

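RNA of 12 mouse livers was sequenced with a QuantSeq 3′ library kit on an Illumina NextSeq 500, per the labels' protocols. The submitters' processing notes name cutadapt 1.9, HISAT2, featureCounts, limma and the mm10 build; the sources used here do not state other versions, the annotation or the strand setting. Raw counts, whole numbers without normalisation for 51912 genes, are what the authors deposited. Positions are those of GENCODE M21 (mm10).

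Groups were read from genotype and diet labels. Genes passing filterByExpr (minimum 10 counts, 15 in total; 18098 genes) were fitted with edgeR 4.0.16 in R 4.3.3: TMM scaling, 1 mean per group over 12 libraries, robust quasi-likelihood dispersions with 8 residual degrees of freedom, and Benjamini-Hochberg adjustment over all 18098 genes. Calls have an adjusted p under 0.05. CPM use TMM library sizes. Within-code values are differences of log2 CPM with a prior count of 2. On simulated counts for this comparison (17841 genes) the fit called 7 of 50 genes changed 1.5-fold, 33 of 50 changed 2-fold and 50 of 50 changed 4-fold, with 9 false calls. The counts were drawn from the fitted negative binomial dispersions, without the added quasi-likelihood spread or a library that stood apart. Only genes of at least 5 CPM were changed. These rates can therefore be higher than in the real livers, where Mlkl (-2.12) was not called.

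The groups and the 44 gene lists were chosen with earlier results of these data known. Named are Mlkl, the core necroptosis genes, and up to 4 members per list by p, or 2 by level. Up to 12 genes per direction are named too, called ones first and then by p, with at least 5 CPM and no overlap. Predicted genes were left out of these. Other genes (such as Hmgcs1, Sqle, Saa1, G0s2, Hspa5, Bmp6, Plin2, Dbp and Ifit2) were named after their values were seen. Some genes are not reported here. Alternatives used limma 3.58.1 and DESeq2 1.42.0, other scalings and filters, the title code or code level as a term, and leaving out each library.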

Additional observations from a re-analysis of the deposited data

Results flagged for a closer look

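The mean score of the 38 interferon-stimulated genes had opposite genotype differences on the 2 diets. Their mean log2 level per library, over members and relative to the 6 ND libraries, was -0.05, -0.03 and -0.23 in the wild-type and 0.02, 0.03 and 0.26 in the Mlkl-/- livers on ND. On HFD it was 0.84, 0.51 and 0.45 in the wild-type and 0.18, 0.44 and 0.41 in the Mlkl-/- livers. The genotype difference on ND exceeded that on HFD by 0.47, and the genotypes did not overlap on either diet, though on HFD the nearest libraries stood at 0.45 and 0.44. Of the 38 members, 10 had a difference below 0 on ND. The difference of the score itself was not tested. Among single members, Ifit2, an antiviral effector, had a log2 difference of 0.42 on ND and -1.51 on HFD.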

How the results depend on the processing

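The number of genes called on ND was 1 with RLE factors, library size only, the 5 CPM filter and non-robust dispersions. It was 10 with no filter beyond 1 count, 46 with DESeq2 (25 higher, 21 lower), 0 with limma-voom (995 at an unadjusted p under 0.05), 3 with sample weights, 0 in the 6 ND libraries alone, 2 with the code level as a term and 27 with the code as a term in the 6 ND libraries (17 higher, 10 lower). DESeq2 and that last fit shared 12 calls. Leaving out each of the 12 libraries gave 0 to 6 calls. The interaction gave 1 call with no filter, 50 with DESeq2, 6 with sample weights and 0 to 4 with a library left out, the 4 without Mlkl-/- ND replicate 1. Mlkl ran from -2.19 to -2.02 with a library left out and was called with no filter (-2.12, adjusted p = 0.00362), DESeq2 (-2.13, 0.000134), the code term in the 6 ND libraries (-2.07, 0.0469) and without Mlkl-/- HFD replicate 3 (-2.12, 0.0341). The causes were not tested. Mybph was called in 14 of 23 alternatives, at -1.65 to -1.46. Of 108 single genes with values in the text, 96 kept their direction in all alternatives and 12 did not (44 of 2468 values). With a library left out, Ighm ran from -2.85 to 0.77, Ripk3 from -0.17 to 1.08, Krt7 from -0.80 to 0.33, Krt19 from -0.59 to 0.51, Stab2 from -0.28 to 0.14, Cpt1a from -0.26 to 0.0071, Ddit3 from -0.23 to 0.10, Fadd from -0.17 to 0.22, Casp8 from -0.14 to 0.031, Clec4f from -0.13 to 0.26, Tfr2 from -0.059 to 0.069 and Ripk1 from -0.040 to 0.14. Signs also turned with library size only (Krt7 -0.057, Ripk1 -0.014, Tfr2 -0.027), limma-voom (Krt7 -0.19, Krt19 0.028, Stab2 0.017), sample weights (Ddit3 0.11, Fadd -0.20, Stab2 0.049, Tfr2 -0.041), the code level (Casp8 0.015, Clec4f -0.027, Krt7 -0.10, Stab2 0.060) and the code term in 6 libraries (Casp8 0.0045, Clec4f -0.042, Krt7 -0.059, Ripk1 -0.048, Stab2 0.050). Leaving out HFD libraries and the list alternatives were chosen after seeing the data. For 9 lists under 23 alternatives, 205 of 207 medians kept within the spread, the exceptions being cholesterol synthesis without Mlkl-/- ND replicate 1 (0.29) and fatty acid oxidation without wild-type ND replicate 3 (-0.30). Other lists moved more, such as adipose tissue in the 6 ND libraries alone (-1.08 to -0.30) and female-biased genes without Mlkl-/- ND replicate 1 (-0.13 to -0.52). No paired analysis was possible because the labels give no replicate numbers shared between the groups. With 3 animals a group, simulated differences near 1.5-fold were mostly beyond reach. Larger ones, such as that of Mlkl (-2.12), also missed the threshold in the main fit of the real livers.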

Other observations

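The keratin pair of the hepatocyte cytoskeleton stood higher in the Mlkl-/- livers on ND. Krt8 stood at 212, 174 and 197 CPM in the wild-type and 1008, 374 and 254 CPM in the Mlkl-/- livers (1.49, adjusted p = 0.624), and at 0.68 without Mlkl-/- replicate 1. Krt18, its partner, stood at 154, 143 and 140 CPM against 459, 232 and 210 CPM (1.04, adjusted p = 0.476). The groups did not overlap for either gene, and replicate 1 was the highest library for both. The bile duct keratins overlapped. Krt19 stood at 0.46 to 1.71 CPM against 0.59 to 1.03 CPM, and Krt7 at 0.49 to 0.69 CPM against 0.32 to 1.15 CPM. On HFD the differences were -0.43 for Krt8 and -0.26 for Krt18.

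Clock genes differed between the Mlkl-/- animals themselves. Arntl, the gene of the clock activator BMAL1, stood at 2.65, 2.11 and 1.87 CPM in the wild-type and 1.18, 4.74 and 11.8 CPM in the Mlkl-/- livers. Dbp, an output gene of the clock, stood at 62.7, 103 and 74.3 CPM against 81.5, 41.6 and 10.5 CPM. The Mlkl-/- replicate with the highest Arntl had the lowest Dbp. Without Mlkl-/- replicate 1, 3 of the 21 clock genes were higher and 6 lower at an unadjusted p under 0.05, against 2 and 0 with it. The sources used here give no times of tissue collection, and the part of the clock in the metabolic differences was not tested.

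Of 13 growth hormone signalling genes, 0 were higher and 3 lower at an unadjusted p under 0.05 (Cish, Igfals and Onecut1), 1 lay wholly below, and the median was -0.15. The count was 0 higher and 1 lower without Mlkl-/- replicate 1. Cish, an early target of STAT5, stood at 9.06, 2.55 and 26.0 CPM in the wild-type and 3.19, 1.24 and 2.21 CPM in the Mlkl-/- livers, and Igfals, which stabilises circulating IGF-1, stood at 71.9, 67.0 and 64.8 CPM against 56.4, 40.04 and 34.3 CPM (-0.64, adjusted p = 0.755). Of these, Igfals did not overlap between the genotypes. Of 26 male-biased liver genes 0 were higher and 0 lower at an unadjusted p under 0.05, with a median of 0.32 on ND. On HFD 12 were higher, beside 7.21% of all genes, with a median of 0.95.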
